A study of Mus musculus with 37 samples.

Results

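Members of the cytochrome P450 subfamilies 2c and 3a and of the carboxylesterase 2 family were followed through 3 expression experiments on murine jejunal organoids exposed to vasoactive intestinal peptide (VIP). The group held 10 genes, taken by symbol: Cyp2c29, Cyp2c38, Cyp2c65, Cyp2c66, Cyp2c55, Cyp3a11, Cyp3a13, Ces2a, Ces2c and Ces2e. All 10 were listed in each count table, out of 27407 genes for whole organoids, 20500 for the first sort and 27547 for the irradiation experiment. The members were selected on the response of whole organoids to VIP, so their values in that contrast are given as a description without a test.

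Whole organoids came from adult C57Bl/6 mice and were left untreated (organoids of 3 mice) or given 100 nM VIP for 72 h (organoids of 4 mice). Lgr5-EGFP+ cells of the first sort came from organoids of 4 further mice, each split into an untreated and a VIP-treated culture (100 nM, 72 h). The irradiation experiment used 4 more mice, with Lgr5-EGFP+ cells sorted from 4 cultures of each: untreated, VIP-treated (100 nM, 48 h), irradiated with 6 Gy, and irradiated then VIP-treated. Both sorts relied on the Lgr5-EGFP-IRES-CreERT2 reporter, in which EGFP is driven from the Lgr5 locus, each mouse gave 1 organoid line, and no group carried a further deletion or agent according to the labels and methods. Expression was measured as unique molecular identifier (UMI) counts from the 3′ ends of poly(A) RNA, given below as CPM, the gene's UMI count scaled so that every culture has a total of 1e6.

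Cytochrome P450 enzymes oxidise drugs, food compounds, steroids and fatty acids in the endoplasmic reticulum, taking electrons from NADPH through the reductase Por. Carboxylesterases of the Ces2 family hydrolyse esters, among them prodrugs and acylglycerols. In the small intestine both kinds of enzyme are most abundant in absorptive enterocytes of the villus, where they form part of the first-pass barrier, and many of their genes respond to the nuclear receptors Nr1i2 (PXR) and Nr1i3 (CAR) and to the enterocyte factors Hnf4a and Hnf4g.

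The genes lie on 3 chromosomes (GRCm38). The Cyp2c members are neighbours on chromosome 19, from Cyp2c55 (39007019-39042693, plus strand) through Cyp2c65 (39061015-39093944, plus), Cyp2c66 (39113898-39187072, plus) and Cyp2c29 (39269405-39330713, plus) to Cyp2c38 (39389556-39463075, minus). Ces2a (104734003-104741634), Ces2c (104847068-104854483) and Ces2e (104926260-104934672) follow each other on the plus strand of chromosome 8. Cyp3a13 (137892932-137921619) and Cyp3a11 (145854426-145879964) are both on the minus strand of chromosome 5, far apart from each other. All 10 are annotated as protein coding.

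The paralogs differ in how far their counts can be told apart. Runs of 65 bases, the cDNA read length, were taken from the last 400 bases of the longest protein-coding transcript of each member, and exact matches were counted. Of 336 runs per member, 114 (33.9%) of Ces2c also occurred in the pseudogene Ces2d-ps, 17 (5.1%) of Ces2a in Ces2e or Gm7208, and 16 (4.8%) of Cyp2c66 in Cyp2c65. The last 400 bases of the other 7 members held no run found in another annotated gene, although Cyp2c65 and Ces2e carry the runs named above in annotated transcripts. Over the aligned part of their transcripts Cyp2c65 and Cyp2c66 were 96.2% identical (1614 bases) and Cyp2c29 and Cyp2c38 87.9% (1760 bases), while pairs of the Ces2 members were 81.4 to 81.9% identical. Ces2c counts are therefore uncertain. A small share of counts could be exchanged between Cyp2c66 and Cyp2c65, and between Ces2a and Ces2e or Gm7208.

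Start-site sequences were available for all 10 genes (RefSeq, GRCm38.p6). The RefSeq start sites used for Cyp2c29 and Cyp3a11 lie inside the gene spans given above, so positions for these genes depend on the annotation. The 200 bases before the start site are shown for the Ces2 genes, which sit side by side but differed in their values, for the near-identical pair Cyp2c65 and Cyp2c66, which also differed, and for Cyp2c29 and Cyp3a11, which varied together. Capitals mark the letters CAAAGT, or ACTTTG where the match is on the opposite strand, the centre of the element that Hnf4a and related nuclear receptors are known to bind.
Ces2a, chr8:104733803-104734002, plus strand: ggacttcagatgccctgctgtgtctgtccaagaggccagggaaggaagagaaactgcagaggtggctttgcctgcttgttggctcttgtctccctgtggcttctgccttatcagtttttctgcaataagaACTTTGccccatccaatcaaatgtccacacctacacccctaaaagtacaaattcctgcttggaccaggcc
Ces2e, chr8:104926060-104926259, plus strand: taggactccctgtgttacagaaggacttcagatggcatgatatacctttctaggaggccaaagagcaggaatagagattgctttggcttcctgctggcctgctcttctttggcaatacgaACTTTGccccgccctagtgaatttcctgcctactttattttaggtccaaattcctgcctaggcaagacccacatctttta
Ces2c, chr8:104846868-104847067, plus strand: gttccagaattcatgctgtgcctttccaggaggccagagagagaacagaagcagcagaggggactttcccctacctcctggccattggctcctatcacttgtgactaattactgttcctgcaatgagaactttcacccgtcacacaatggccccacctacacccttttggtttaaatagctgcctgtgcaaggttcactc
Cyp2c65, chr19:39060806-39061005, plus strand: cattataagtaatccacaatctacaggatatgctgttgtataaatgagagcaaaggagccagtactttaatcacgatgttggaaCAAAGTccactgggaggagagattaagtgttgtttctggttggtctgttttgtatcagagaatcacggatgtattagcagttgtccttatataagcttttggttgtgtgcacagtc
Cyp2c66, chr19:39113698-39113897, plus strand: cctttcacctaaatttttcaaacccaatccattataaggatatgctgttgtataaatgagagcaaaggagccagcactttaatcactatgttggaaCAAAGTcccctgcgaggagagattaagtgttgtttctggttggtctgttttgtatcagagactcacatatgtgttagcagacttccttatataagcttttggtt
Cyp2c29, chr19:39286885-39287084, plus strand: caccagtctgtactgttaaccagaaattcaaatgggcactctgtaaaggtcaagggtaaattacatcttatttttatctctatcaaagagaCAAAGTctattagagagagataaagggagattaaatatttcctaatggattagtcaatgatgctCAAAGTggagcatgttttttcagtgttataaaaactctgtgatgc
Cyp3a11, chr5:145879855-145880054, minus strand: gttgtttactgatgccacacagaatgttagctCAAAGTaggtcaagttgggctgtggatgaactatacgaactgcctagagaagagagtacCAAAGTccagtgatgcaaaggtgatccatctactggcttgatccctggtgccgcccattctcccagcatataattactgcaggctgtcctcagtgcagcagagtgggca

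CAAAGT was searched on both strands of 300 bases (250 before and 50 after the start), where 7 of the 10 members held it: Cyp2c29, Cyp2c38, Cyp2c65, Cyp2c66, Cyp3a11, Ces2a and Ces2e. The share among all 32851 promoters of that length was 14.4%. The motif was chosen after the letters had been seen, and the members are related by descent, so the count is a description. In Cyp2c29, Cyp2c38, Cyp2c65, Cyp2c66 and Cyp3a11 a match began at position -109, -111, -116, -104 and -109 from the RefSeq start site. The longer run CAAAGTCCA, which contains CAAAGT, was present in Cyp2c65 and Cyp3a11 and in 0.475% of all promoters. The nuclear receptor half-site AGGTCA was present in Cyp2c29, Cyp3a11 and Ces2a (16.3% of all promoters), AGTTCA in Cyp3a11 (14.0%), the GATA-type motif AGATAA in Cyp2c29 and Cyp2c55 (11.2%), and the cyclic AMP response element TGACGTCA was in no member's window (1.79% of all promoters). The aligned promoters were 94.5% identical between Cyp2c65 and Cyp2c66, 81.3% between Cyp2c29 and Cyp2c38, and 69.1% between Ces2a and Ces2e.

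Depth differed between experiments, with 3722716 to 6330404 UMI counts per culture in whole organoids, 575242 to 1104126 in the first sort and 1075715 to 1876729 in the irradiation experiment. Epcam, the general epithelial marker, was found at 796 to 1411 CPM in all cultures. Lgr5 itself was at 13.2 to 56.2 CPM in the first sort and 12.2 to 38.3 CPM in the irradiation experiment, beside 42.4 to 116 CPM in whole organoids, so its transcript was not higher in the sorted cells. The summed stem cell list (12 genes) was at 2399 to 4895 CPM in whole organoids, 4493 to 7445 CPM in the first sort and 2973 to 6330 CPM in the irradiation experiment. The summed enterocyte list (22 genes) was at 12961 to 16881 CPM in whole organoids, 1136 to 2735 CPM in the first sort and 1053 to 3784 CPM in the irradiation experiment. These levels were set side by side across tables and were not tested.

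A library of whole organoids went against its label. The culture of VIP-treated mouse 3 had 2 technical libraries, and the library labelled as its second was nearest over all tested genes to an untreated library of mouse 1, with its own partner the farthest of the 12 other libraries. Ces2a was at 92.9 CPM in the first library and 468 CPM in the library labelled second, beside 423 to 473 CPM in the 4 untreated libraries of mice 1 and 2. Cyp2c29 was at 558 and 155 CPM, Cyp3a13 at 444 and 177 CPM, and Ces2e at 233 and 626 CPM. The libraries of a culture were summed as labelled. For each member, the fitted change without the second library of this culture is given beside its value. Values of all other genes and of the summed lists in whole organoids include that library and are not given without it.

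**Figure D1:**
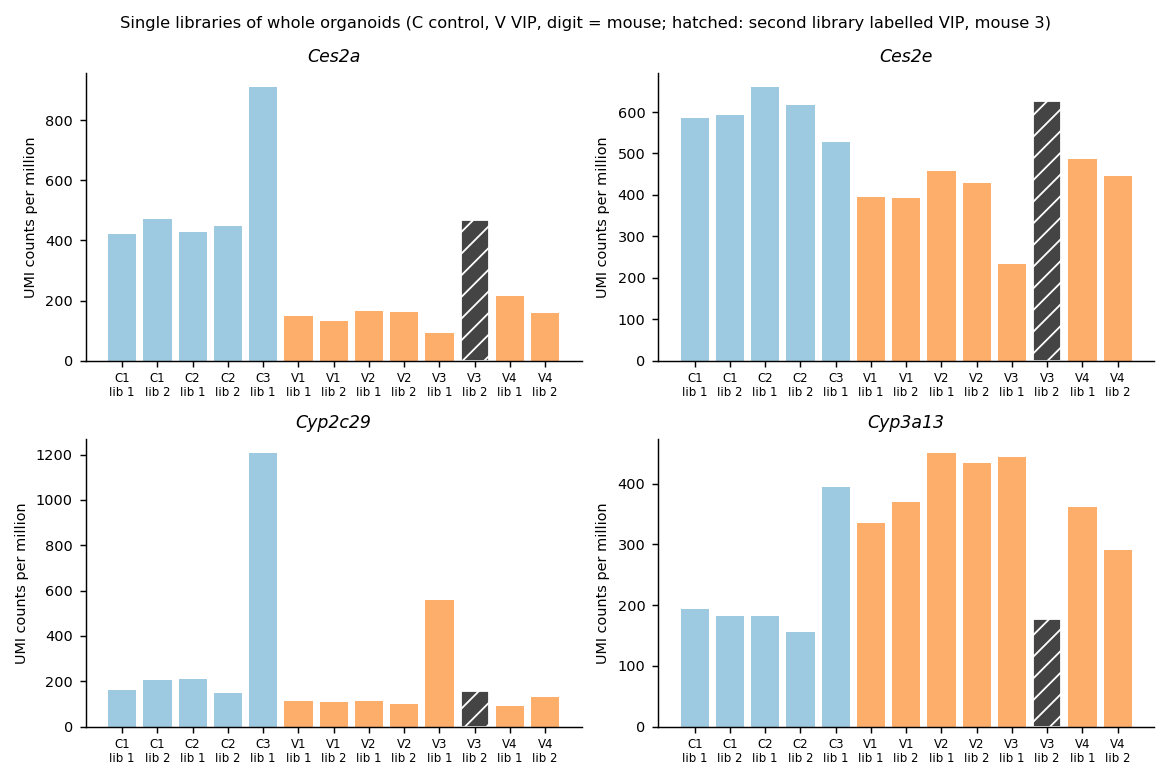
Ces2a, Ces2e, Cyp2c29 and Cyp3a13 in each of the 13 whole-organoid libraries, in CPM on linear axes from 0; blue bars are untreated, orange bars VIP-treated, and the dark hatched bar is the library labelled VIP, mouse 3, second. In all 4 panels the hatched bar lies nearer to the untreated libraries of mice 1 and 2 than to its partner beside it.

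In whole organoids VIP-treated cultures held less Ces2a, Ces2e, Cyp2c66, Cyp2c29 and Cyp2c38 than untreated cultures of the same mice. Cyp3a13 was the exception, with more in 2 of 3 mice, and in all 3 when the second library of VIP-treated mouse 3 is left aside, and Cyp2c65, Cyp2c55, Ces2c and Cyp3a11 showed no common direction. Since these genes were chosen on this contrast, the counts support nothing: 5 of the 10 passed the threshold, all lower, where 4.82% of all 12727 tested genes passed (adjusted p of 0.05 or less, edgeR). Without the second library of VIP-treated mouse 3, 6 members and 1261 genes passed. When only that second library stood for the culture, a setting chosen after seeing the data, none of the members and none of 12748 genes passed in edgeR, with 720 genes at an unadjusted p under 0.05. In bulk RNA, fewer cells of a type and less RNA per cell cannot be told apart.

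Ces2a, an esterase of the enterocyte endoplasmic reticulum, was at 448, 439 and 911 CPM in untreated organoids of mice 1, 2 and 3 and at 140, 162, 238 and 189 CPM in VIP-treated organoids of mice 1 to 4. With libraries summed, all VIP-treated cultures lay below all untreated cultures, which was not counted over all genes. Taken alone, the second library of VIP-treated mouse 3 was at 468 CPM, above the untreated cultures of mice 1 and 2. The fitted log2 fold change was -1.69 ± 0.11 (SE, 3 mice with both cultures). It was -2.09 without the second library of VIP-treated mouse 3, -1.38 when only that second library stood for the culture, and -1.54 without mouse 3.

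Ces2e, of the same gene cluster, was at 590, 637 and 527 CPM untreated and 394, 442, 385 and 468 CPM with VIP. The groups of summed cultures again did not overlap, which was not counted over all genes. The differences were -0.57 and -0.50 in mice 1 and 2 on the log2 scale. The -0.49 of mouse 3 was a sum over VIP-treated libraries at 233 and 626 CPM against 527 CPM untreated. The fitted value was -0.53 ± 0.08, and -0.75 without the second library of VIP-treated mouse 3. Ces2c, the third member of this cluster, was at 22.9, 21.2 and 38.7 CPM untreated and 28.6, 30.7, 20.5 and 27.6 CPM with VIP, higher in mice 1 and 2 and lower in mouse 3 (log2 fold change -0.02 ± 0.23, 0.0057 without that library and 0.44 without mouse 3).

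Among the Cyp2c genes, Cyp2c66 was at 153, 144 and 290 CPM untreated and 94.0, 104, 146 and 103 CPM with VIP. It was lower in 3 of 3 mice, although the VIP-treated culture of mouse 3 overlapped the untreated range (log2 fold change -0.73 ± 0.11, -0.71 without the second library of VIP-treated mouse 3). Its near-identical neighbour Cyp2c65 was at 227, 214 and 320 CPM untreated and 224, 237, 239 and 228 CPM with VIP. Mice 1 and 2 changed little for Cyp2c65 and mouse 3 was lower (log2 fold change -0.10 ± 0.12, -0.06 without that library and 0.09 without mouse 3).

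Cyp2c29, an arachidonic acid epoxygenase that is also abundant in mouse liver, was dominated by mouse 3. It was at 183, 177 and 1207 CPM untreated and 109, 104, 403 and 108 CPM with VIP, and each of the 3 mice was lower with VIP. The log2 fold change was -1.06 ± 0.15, with -0.88 without the second library of VIP-treated mouse 3 and -0.73 without mouse 3. Cyp2c38 was scarce, with 24, 8 and 32 UMI counts untreated and 5, 4, 14 and 7 with VIP, a log2 fold change of -1.94 ± 0.36 (-1.959 without that library). Cyp2c55, which acts on arachidonic and linoleic acid, was at 72.9, 65.3 and 109 CPM untreated and 71.2, 87.8, 70.0 and 88.4 CPM with VIP, with overlapping groups (log2 fold change -0.09 ± 0.16, -0.07 without that library and 0.22 without mouse 3).

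Cyp3a11, the main inducible 3a enzyme of mouse liver and gut and a classical Nr1i2 target, was at 112, 86.7 and 435 CPM untreated and 93.6, 86.7, 238 and 91.5 CPM with VIP. Mouse 1 was slightly lower, mouse 2 was level and mouse 3 was clearly lower (log2 fold change -0.41 ± 0.15, -0.24 without the second library of VIP-treated mouse 3). Cyp3a13 was at 188, 167 and 395 CPM untreated and 352, 442, 341 and 330 CPM with VIP. It was higher in mice 1 and 2, with a log2 fold change of 0.69 ± 0.22. In mouse 3 the first VIP-treated library was at 444 CPM, above the untreated 395 CPM, and the library labelled second at 177 CPM, below it. The fitted change was 0.82 without that second library and 1.17 without mouse 3. The untreated culture of mouse 3 thus held the highest level of 9 of the 10 members among untreated organoids, the exception being Ces2e. VIP-treated mouse 4 had no untreated partner and did not contribute to the fitted changes.

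**Figure D2:**
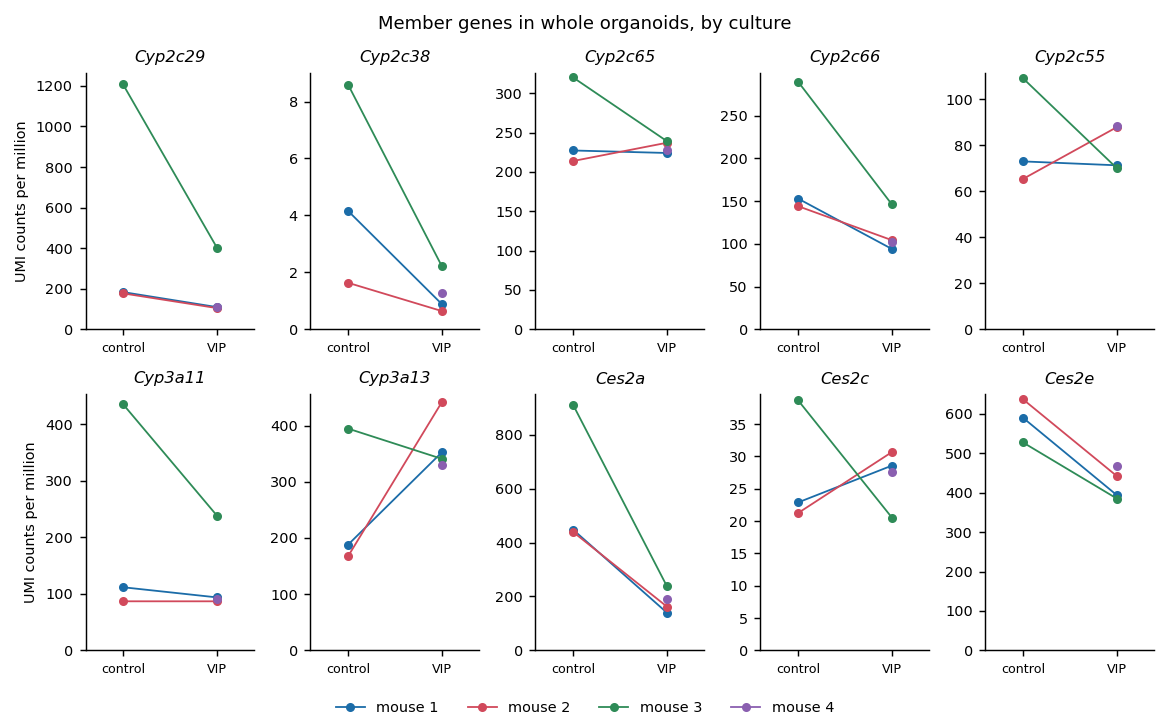
The 10 genes in whole organoids, in CPM on linear axes from 0, with 1 point per culture, libraries of a culture summed, and lines joining cultures of the same mouse. Ces2a and Ces2e are lower with VIP in every joined pair, and the green points of mouse 3 stand above the other mice for Cyp2c29 and Cyp3a11.

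The other genes of drug metabolism were read from lists by gene family, with members left out and the second library of VIP-treated mouse 3 included. Among the other P450 genes of families 1 to 3, 4 of 14 tested fell with VIP, namely Cyp2c68 (log2 fold change -0.97), Cyp2j6 (-0.92), Cyp2u1 (-1.12) and a further gene, and Cyp2s1 rose (0.65). The list median was -0.27 beside -0.0041 for all genes. Of 7 other carboxylesterases 2 fell, Ces1f (-0.90) and Ces1e (-0.85). Of 8 UDP-glucuronosyltransferases, which attach glucuronic acid to drugs and bilirubin, 3 fell, Ugt2b36 (-1.16), Ugt2a3 (-0.68) and Ugt2b5 (-0.95), and all 8 had a value below 0.

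Conjugating enzymes of the glutathione pathway went both ways. Of 23 glutathione S-transferases 2 rose, Gstk1 (1.24) and Gsta4 (1.17), and 5 fell, among them Gstm3 (-0.87), Gstm2 (-0.54) and Mgst1 (-0.53). Sult1c2 rose (0.98) among 5 sulfotransferases, and the exporter Abcc3 rose (0.65) among 13 transporters. Of 22 receptors and nuclear factors, Nr1i3 fell (-0.53, adjusted p = 0.0197, edgeR) and Nfe2l2, the factor of the oxidative stress response, rose (0.34, adjusted p = 0.0346, edgeR). Nr1i2 (-0.09), Hnf4a (0.15) and Hnf4g (-0.12) did not pass the threshold.

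The enterocyte list did not move as a block in these organoids. Of its 22 genes 6 rose, among them Alpi (1.35), Krt20 (0.97) and Apob (0.54), and 2 fell, Treh (-0.96) and Fabp1 (-0.49). Its summed level was 15735 to 16539 CPM untreated and 12961 to 16881 CPM with VIP. Goblet cell markers moved with VIP, 7 of 10 rising, Clca1 (2.08), Zg16 (1.67) and Agr2 (0.73) among them, with summed levels of 5538 to 6918 CPM untreated and 7885 to 9468 CPM with VIP. Of 10 Paneth cell markers Pnliprp2 rose (0.62), and of 10 enteroendocrine markers Cck (0.53). Non-epithelial markers stayed at 11.1 to 14.1 CPM in sum, with Col1a1, Pdgfra and Cdh5 at 0 or not listed, and Il25 of the tuft cell list likewise. The part of the goblet cell rise in the members' values was not tested.

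In Lgr5-EGFP+ cells of the first sort most members had few UMI counts. Only Cyp2c65, Ces2a and Ces2e passed the filter on low counts. None passed the threshold in edgeR or DESeq2, where 0.0885% of 6778 tested genes passed in edgeR, and 2 of the 3 had an unadjusted p under 0.05. All 10 members together summed to 184 to 418 CPM in untreated and 139 to 260 CPM in VIP-treated cells.

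Ces2a was at 23.6, 78.6, 37.8 and 126 CPM in untreated cells of mice 1 to 4 and at 19.0, 8.7, 47.7 and 20.6 CPM in VIP-treated cells. It was lower in 3 of 4 mice, and much lower in mice 2 and 4 only, with a log2 fold change of -1.40 ± 0.34 (adjusted p = 0.125, edgeR). It was -2.01 without mouse 3 (adjusted p = 4.84e-04, edgeR), -1.71 without mouse 1 (0.318), -1.01 without mouse 2 (0.580) and -0.90 without mouse 4 (adjusted p = 1, edgeR). Ces2e was at 89.4, 125, 69.1 and 89.0 CPM untreated and 56.2, 55.6, 85.1 and 68.1 CPM with VIP, again lower in 3 of 4 mice (log2 fold change -0.53 ± 0.20, adjusted p = 0.868, edgeR). Cyp2c65 was at 33.5 to 69.9 CPM untreated and 37.4 to 58.6 CPM with VIP, with overlapping groups (log2 fold change -0.28 ± 0.23, adjusted p = 0.941, edgeR).

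The other 7 members were not tested there. Cyp2c38 had 2 UMI counts over the 4 untreated and 1 over the 4 VIP-treated libraries, and Ces2c had 14 and 8. Cyp2c29 ranged from 3.4 to 36.6 CPM untreated and from 1.7 to 40.9 CPM with VIP, higher in mice 1 and 3 and lower in mice 2 and 4. Cyp2c66 was at 0 to 14.3 CPM untreated and 1.7 to 6.8 CPM with VIP, Cyp2c55 at 5.8 to 28.6 and 8.7 to 18.1, Cyp3a11 at 3.3 to 19.1 and 8.7 to 20.6, and Cyp3a13 at 6.7 to 28.6 and 12.2 to 23.8. At this depth a difference in these genes was not detectable. Of 8 tested goblet markers Fcgbp fell (-0.97) in this comparison. Summed goblet levels were 3819 to 7362 CPM untreated and 3081 to 5702 CPM with VIP, and Ptprc, Cd3e, Col1a1, Col3a1, Pdgfra and Cdh5 of the non-epithelial list were at 0 or not listed, as were Gfi1b and Il25 of the tuft list.

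In the irradiation experiment 8 of the 10 members could be tested. Cyp2c38 and Ces2c stayed below the filter, with 0 to 4 and 1 to 13 UMI counts per library. Its 4 groups answer how VIP acted without and with prior irradiation, and how irradiation acted without and with VIP afterwards. The comparisons share groups, so their values are given side by side and not as independent results.

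Without irradiation VIP lowered Ces2a, Ces2e and Cyp2c66. These were 3 of the 8 tested members, and none passed as a rise, where 0.742% of 9976 tested genes passed in edgeR. In DESeq2, 2 members passed. Each of the 3 fell in 4 of 4 mice with no overlap between the groups, a trait that was not counted over all genes. Ces2a was at 134, 142, 108 and 165 CPM untreated and at 64.6, 51.5, 56.3 and 45.7 CPM with VIP in mice 1 to 4, a log2 fold change of -1.33 ± 0.20 (adjusted p = 7.21e-04, edgeR). Ces2e was at 198, 167, 190 and 165 CPM untreated and 127, 114, 132 and 104 CPM with VIP, a log2 fold change of -0.60 ± 0.10 (adjusted p = 0.00213, edgeR). The differences within mice for Ces2e lay between -0.68 and -0.53.

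Cyp2c66 was at 11.9, 17.3, 14.5 and 35.4 CPM untreated and 6.8, 9.7, 2.6 and 5.5 CPM with VIP, from 4 to 54 UMI counts per library. Its log2 fold change was -1.70 ± 0.34 (adjusted p = 0.0128, edgeR). The call was lost without mouse 3 (-1.55, adjusted p = 0.0984, edgeR) and without mouse 4 (-1.24, adjusted p = 0.206, edgeR). Cyp2c65 was at 110, 137, 142 and 141 CPM untreated and 74.4, 108, 125 and 105 CPM with VIP. It was lower in 4 of 4 mice by a smaller amount and did not pass the threshold (-0.37 ± 0.11, adjusted p = 0.126, edgeR).

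The remaining 4 tested members did not share a direction between mice. Cyp2c29 was at 32.0, 19.1, 20.01 and 21.6 CPM untreated and 12.02, 38.1, 14.7 and 9.1 CPM with VIP, lower in 3 mice and higher in mouse 2 (-0.39 ± 0.42, adjusted p = 0.788, edgeR). The VIP-treated culture of mouse 2 was likewise the highest of its group for Cyp3a11, Cyp3a13 and Cyp2c55. Cyp3a11 had a log2 fold change of -0.25 ± 0.36, Cyp3a13 of 0.01 ± 0.38 and Cyp2c55 of -0.63 ± 0.33. Ces2c, below the filter and untested, was higher with VIP in 4 of 4 mice, with 10 UMI counts over the untreated and 17 over the VIP-treated libraries.

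In irradiated cells VIP lowered 3 of the 8 tested members, Cyp2c29, Cyp3a11 and Ces2a, where 0.221% of 9976 tested genes passed. Cyp2c29 was at 44.1, 54.9, 35.3 and 156 CPM after irradiation alone and at 17.6, 19.2, 17.7 and 14.0 CPM when VIP followed (-2.002 ± 0.36, adjusted p = 0.00724, edgeR). Cyp3a11 was at 34.1, 42.1, 18.6 and 91.8 CPM and then 17.1, 18.4, 12.9 and 15.6 CPM (-1.47 ± 0.28, adjusted p = 0.0176, edgeR). Ces2a was at 104, 83.1, 75.3 and 227 CPM and then 74.6, 62.3, 47.7 and 59.3 CPM (-0.96 ± 0.20, adjusted p = 0.0356, edgeR). For all 3 the groups did not overlap and 4 of 4 mice were lower, with mouse 4 by far the most. Overlap was read for the members only and not counted over all genes.

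These 3 calls depended on single mice and on the tool. Without mouse 4 the log2 fold changes were -1.29 for Cyp2c29, -0.94 for Cyp3a11 and -0.51 for Ces2a, with adjusted p of 0.0585, 0.445 and 0.330 (edgeR). Without mouse 3 they were -2.24, -1.65 and -1.02 (adjusted p = 0.0696, 0.0696 and 0.191, edgeR), and DESeq2 gave adjusted p of 0.116, 0.229 and 0.394. Without the mouse as a replicate block, Cyp2c29 stayed past the threshold and Cyp3a11 (adjusted p = 0.0706, edgeR) and Ces2a (adjusted p = 0.117, edgeR) did not.

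Other members were also lower in irradiated cells given VIP without passing the threshold. Ces2e was at 260, 300, 267 and 337 CPM after irradiation and 235, 230, 231 and 224 CPM with VIP, lower in 4 of 4 mice (-0.36 ± 0.09, adjusted p = 0.112, edgeR). Its groups did not overlap, which was not counted over all genes. Cyp2c66 was at 14.1, 11.1, 13.9 and 11.6 CPM and 8.5, 5.6, 3.5 and 4.3 CPM (-1.21 ± 0.37, adjusted p = 0.384, edgeR). Cyp3a13 had a log2 fold change of -0.74 ± 0.33, Cyp2c55 of -0.31 ± 0.38 and Cyp2c65 of -0.15 ± 0.12. Cyp2c38 and Ces2c, untested, had 9 and 30 UMI counts over the 4 irradiated libraries and 2 and 16 over the 4 that also received VIP.

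**Figure D3:**
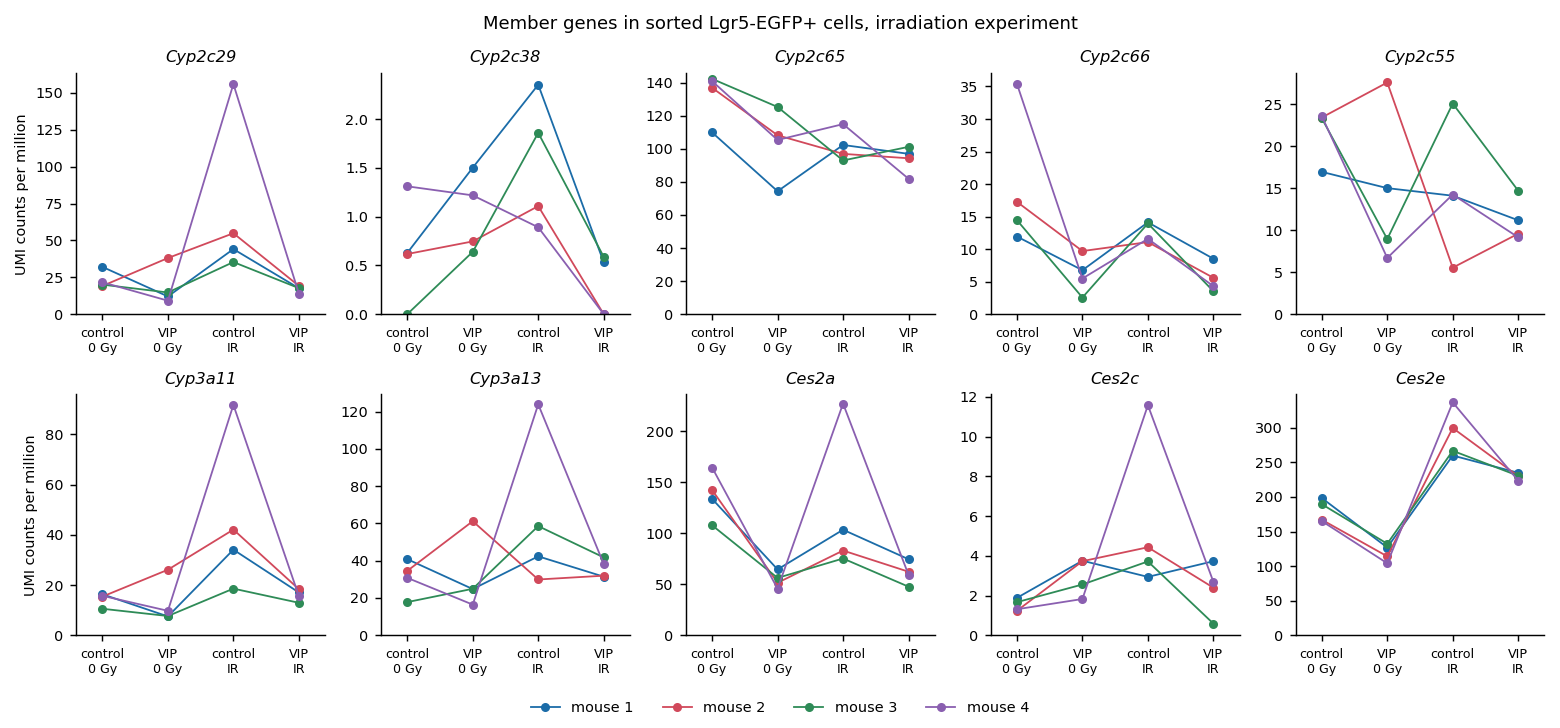
The 10 genes in Lgr5-EGFP+ cells of the irradiation experiment, in CPM on linear axes from 0, with 1 point per library and lines joining libraries of the same mouse (IR, 6 Gy). Ces2e is higher in the irradiated than in the matching non-irradiated library of every mouse, and the purple point of mouse 4 after irradiation alone stands above the other mice for Cyp2c29, Cyp3a11, Cyp3a13, Ces2a and Ces2c.

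Irradiation without VIP raised 3 of the 8, Ces2e, Cyp3a11 and Cyp2c29, where 4.46% of 9976 tested genes passed. Ces2e lay between 165 and 198 CPM without irradiation and between 260 and 337 CPM with it, higher in 4 of 4 mice (0.70 ± 0.09, adjusted p = 2.30e-05, edgeR). Cyp3a11 went from 16.3, 15.4, 10.6 and 15.7 CPM to 34.1, 42.1, 18.6 and 91.8 CPM (1.60 ± 0.29, adjusted p = 0.00104, edgeR). Cyp2c29 lay between 19.1 and 32.0 CPM without irradiation and between 35.3 and 156 CPM with it, the highest value again in mouse 4 (1.53 ± 0.34, adjusted p = 0.00697, edgeR). None of the 3 overlapped between the groups, which again was not counted over all genes.

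The rise of Cyp2c29 was not past the threshold without mouse 4 (0.90, adjusted p = 0.0718, edgeR) or in DESeq2 (adjusted p = 0.104). Cyp3a13 was higher in 3 of 4 mice (0.96 ± 0.34, adjusted p = 0.124, edgeR). Ces2a, in contrast to Ces2e, was lower in mice 1, 2 and 3 and higher in mouse 4 (-0.22 ± 0.18, adjusted p = 0.610, edgeR), and without mouse 4 it was past the threshold as a fall (-0.56, adjusted p = 0.0143, edgeR). Cyp2c65 (-0.36 ± 0.11, adjusted p = 0.0666, edgeR), Cyp2c66 (-0.60 ± 0.30) and Cyp2c55 (-0.65 ± 0.34) were not past it. Ces2c had 10 UMI counts over the untreated and 30 over the irradiated libraries, higher in 4 of 4 mice and untested.

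In VIP-treated cells irradiation raised Ces2e alone among the members, where 7.78% of 9976 tested genes passed. Ces2e was at 127, 114, 132 and 104 CPM with VIP and at 235, 230, 231 and 224 CPM with irradiation and VIP (0.94 ± 0.10, adjusted p = 3.16e-07, edgeR), higher in 4 of 4 mice by 0.76 to 1.06 on the log2 scale. Cyp3a11 (0.37 ± 0.35) and Cyp2c29 (-0.08 ± 0.44) did not pass.

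Whether VIP acted differently in irradiated and non-irradiated cells was tested by the interaction term. None of the 8 members passed, nor did any of 9976 genes (0%), in edgeR or DESeq2, with 634 and 266 genes at an unadjusted p under 0.05. Of the 8 members, 2 had an unadjusted p under 0.05, Cyp2c29 (-1.61 ± 0.56, adjusted p = 0.687, edgeR) and Cyp3a11 (-1.23 ± 0.46, adjusted p = 0.687, edgeR). Their VIP effects in irradiated cells are therefore not shown to differ from those in non-irradiated cells. The same holds for Ces2a (0.37 ± 0.29) and Ces2e (0.24 ± 0.13).

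**Figure D4:**
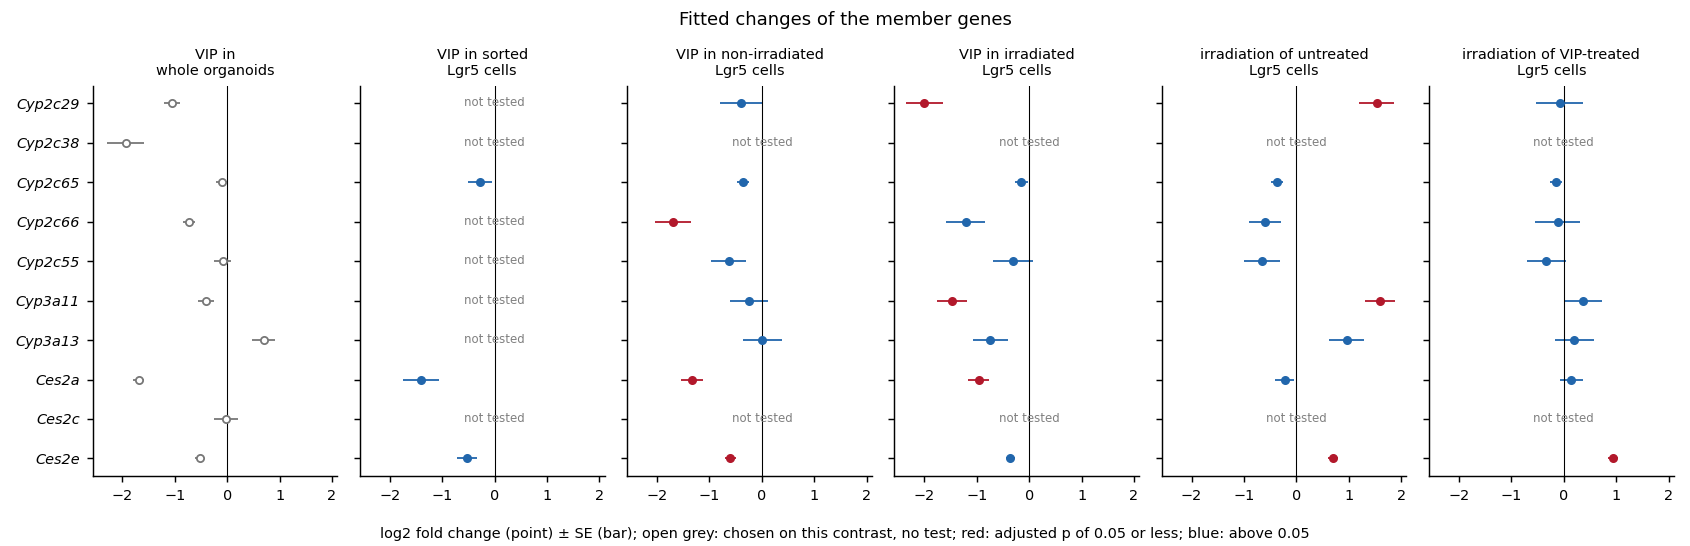
Fitted log2 fold changes of the 10 genes in 6 comparisons, with SE bars; open grey points are the contrast on which the genes were chosen, red points have an adjusted p of 0.05 or less, blue points do not, and genes below the count filter are written as not tested. In the VIP panels of sorted cells Ces2a and Ces2e lie left of 0, though neither is red in the first sort and Ces2e is blue in irradiated cells. They also lie left of 0 in whole organoids, the contrast on which they were chosen. Ces2e lies right of 0 in both irradiation panels.

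Over the 16 libraries of this experiment each member was set beside all tested genes by the root mean square difference of centred log2 CPM. Cyp2c29 and Cyp3a11 were each other's nearest gene (0.34), where the spread of Cyp2c29 itself was 0.93 and that of Cyp3a11 0.85. The enterocyte genes Rbp2, a retinol carrier, and Apoa1, an apolipoprotein, came next for Cyp2c29 (0.37 and 0.38), and Apoa1 and Reg3a, an antimicrobial lectin, for Cyp3a11 (0.41 and 0.42). Cyp3a13 was nearest to Guca2b (0.32), Slc20a1 (0.37) and Apoa4 (0.39).

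Ces2e kept other company, with Ms4a10 (0.13) and then Bbc3 (0.20) and Bax (0.21), both of which encode death-promoting proteins known as p53 targets, beside a spread of 0.48. Ces2a was nearest to Clcn2 (0.34), St3gal4 (0.35) and Btnl1 (0.38), with a spread of 0.67. Cyp2c66 was nearest to Fcgrt (0.40), its family member Cyp2c68 (0.47) and Cyp4f14 (0.51), and Cyp2c55 to Ugt2a3 (0.37), Soat2 (0.43) and Sel1l3 (0.45). Cyp2c65 varied little (0.27) and was nearest to Cth (0.12), Reep6 (0.16) and Hadh (0.16). The libraries share mice, conditions and depth, so these distances are a description.

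**Figure D5:**
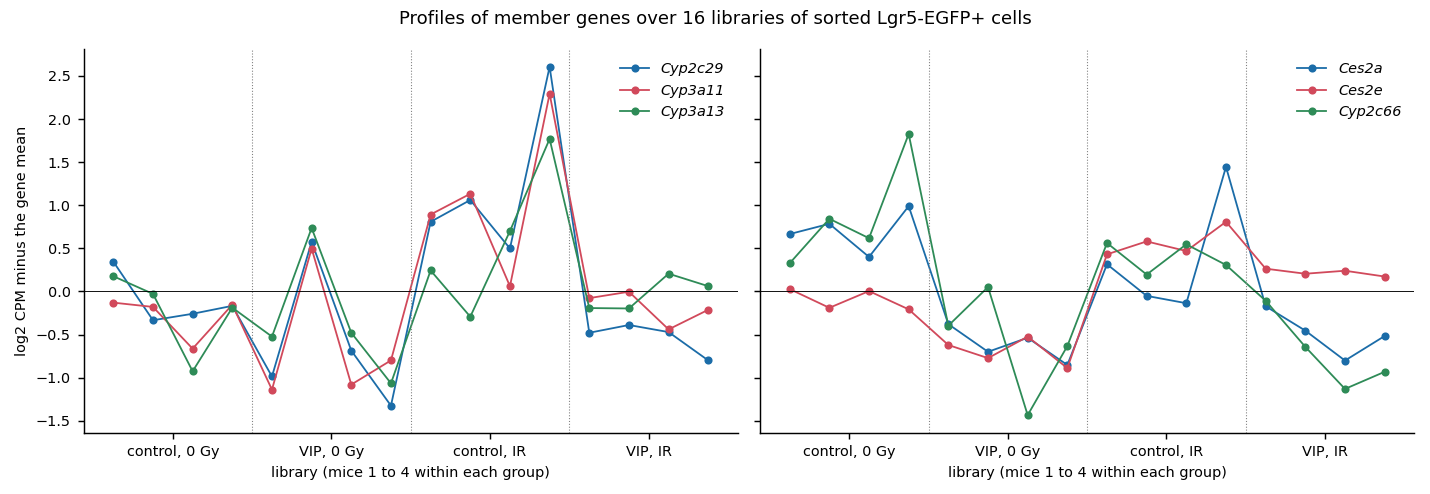
Centred log2 CPM of 6 members over the 16 libraries, ordered by group and then by mouse, with dotted lines between groups. Cyp2c29 and Cyp3a11 follow each other, including the peak of mouse 4 after irradiation, while Ces2e is lower in both VIP groups than in the matching untreated group with little spread between mice.

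Marker lists moved in these comparisons too. The summed enterocyte list was at 1439 to 1957 CPM in untreated, 1053 to 1383 CPM in VIP-treated, 1858 to 3784 CPM in irradiated and 1489 to 1575 CPM in irradiated and VIP-treated cells, and the 3784 CPM were those of irradiated mouse 4. Of its 19 tested genes, 17 had a value below 0 with VIP without irradiation (median -0.40) and 18 with VIP after irradiation (median -0.64). With irradiation 19 lay above 0 without VIP (median 0.82) and 18 with VIP (median 0.57). Most of these were not calls. Fabp1 (-0.95) and Fabp2 (-0.41) fell past the threshold with VIP without irradiation, and Fabp1 (-1.37) and Rbp2 (-1.60) with VIP after irradiation. Irradiation alone raised 6 of the 19, Rbp2 (1.31), Fabp1 (0.87) and Anpep (1.497) among them. Irradiation of VIP-treated cells raised 2, Krt20 (0.94) and Apoc3 (1.20). The part of enterocyte RNA in the members' values was not tested.

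Secretory markers rose with irradiation. Of 9 tested Paneth cell markers 7 rose without VIP and 8 with it, and their sum was 10439 to 15621 CPM in untreated and 15589 to 28424 CPM in irradiated cells. Of 10 goblet markers 6 and 4 rose, and of 9 enteroendocrine markers 4 and 8. VIP lowered Fcgbp, a goblet cell gene, in irradiated cells (-1.05). The fitted values of 9 of 9 Paneth markers lay below 0 in both VIP comparisons, with medians of -0.41 and -0.51, although these were not calls. Their sum was 8881 to 10210 CPM in VIP-treated, non-irradiated cells, below all untreated libraries. The stem cell sum was 3941 to 4992 CPM untreated and 5895 to 6330 CPM with VIP, and 2973 to 3400 CPM and 3653 to 4306 CPM after irradiation, without overlap in either pair. Among stem cell markers Olfm4 rose with VIP in non-irradiated (0.57) and irradiated cells (0.35) and fell with irradiation (-0.64 without and -0.86 with VIP). In tuft cell markers Sh2d6 rose with irradiation of VIP-treated cells (1.15), and Vim, the only tested gene of the non-epithelial list, rose with irradiation (1.31 without and 1.004 with VIP), that list summing to 15.0 to 78.1 CPM. The part of these cells in the members' values was not tested.

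Other genes of drug metabolism gave few calls, although several lists lay below 0 with VIP. Of 7 other P450 genes of families 1 to 3, 6 were below 0 without irradiation (median -0.31) and 7 after it (-0.47). Of 4 UDP-glucuronosyltransferases 4 and 3 were below 0 (medians -0.53 and -0.25), and of 4 other carboxylesterases 3 and 2 (-0.56 and -0.0055). The medians of the members were -0.50 and -0.85. These shifts of lists were not tested. With VIP in non-irradiated cells Mgst2 (-0.38) of 22 tested glutathione S-transferases and Cyb5a (-0.31), the cytochrome b5 that hands electrons to P450 enzymes, of 6 electron transfer partners fell. With irradiation alone Cyp4b1 (0.95) and Cyp4f16 (0.67) rose among 6 family 4 genes, Gsta1 (1.67), Gsta4 (0.39) and Gstt1 (0.52) rose among the glutathione S-transferases while Gstt2 (-0.38) and Mgst3 (-0.23) fell, and Cyp2s1 (-0.76) and the exporter Abcg2 (-0.53) fell. With irradiation of VIP-treated cells Ces2g (0.70), Abcb1b (2.83), which encodes a P-glycoprotein, and Abcc4 (1.11) rose and Cyp2s1 fell (-1.14), while Gsta4 (0.63) and Gsta3 (0.39) rose and Gstt2 fell (-0.44).

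Of 21 tested receptors and nuclear factors 4 fell with irradiation alone, and 2 rose and 2 fell with irradiation of VIP-treated cells. The intestinal homeobox factor Cdx1 fell in both (-0.42, adjusted p = 0.0026, and -0.34, adjusted p = 0.0103, edgeR), and Nfe2l2 (0.30) and Ppard (1.02) rose in VIP-treated cells. Hnf4g fell with irradiation both without (-0.51, adjusted p = 0.0168, edgeR) and with VIP (-0.41, adjusted p = 0.0427, edgeR), and Vdr, the vitamin D receptor, fell with irradiation alone (-0.80, adjusted p = 0.00416, edgeR). Nr1i3 was at 10.01 to 14.4 CPM in untreated and 3.7 to 8.3 CPM in VIP-treated non-irradiated cells. The groups did not overlap, which was not counted over all genes, and the change was short of the threshold (-1.18 ± 0.32, adjusted p = 0.0809, edgeR). Nr1i2 (-0.09), Ahr (-0.05), Hnf4a (-0.29), Nr1h4 (-0.59) and Rxra (-0.20) did not pass in that comparison, nor did Cdx2 (0.10). With VIP in irradiated cells Nr1i3 did not fall (0.22 ± 0.31, adjusted p = 0.977, edgeR). It was -0.57 ± 0.30 with irradiation alone and 0.83 ± 0.33 with irradiation of VIP-treated cells, neither past the threshold. The part of Nr1i3 in the members' values was not tested.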

How the data were processed

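RNA was measured in 37 libraries from 31 cultures. The deposited UMI counts per gene were made by the authors from 3′-end libraries with a Drop-seq pipeline, by alignment to GRCm38 with GENCODE genes, without normalization. Technical libraries of a culture were summed. Each of the 3 tables was fitted separately in edgeR 4.0.16 (R 4.3.3, limma 3.58.1) with filterByExpr, TMM scaling and the quasi-likelihood test, with the mouse as a block, and Benjamini-Hochberg adjusted p of 0.05 or less as the threshold. Likeness and differences within mice used log2 CPM with a prior count of 2. The replicate numbers pair cultures because the labels give them the same mouse line. Correlations of deviations between cultures of a mouse were 0.268 to 0.634 in whole organoids, 0.029 to 0.213 in the first sort and -0.071 to 0.16 in the irradiation experiment. Between cultures of different mice they were -0.545 to 0.334, -0.143 to 0.151 and -0.204 to 0.205. In the irradiation experiment the range between mice covers the range within mice, so the pairing there rests on the labels. VIP-treated whole-organoid mouse 4 has no untreated partner.

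The members and gene lists were chosen with earlier results of these data known. All 10 members were named, with up to 3 genes per direction of smallest p from each other list, a fixed set of regulators and markers, and for likeness the 3 nearest genes. The text also gives the likeness of the 8 members with a mean of at least 10 CPM. Alternatives were DESeq2 1.42.0, RLE size factors, no low-count filter, no replicate block, leaving out each mouse, other handling of technical libraries, and fits of only the 2 groups compared. Scripts were tested on simulated data. Sequences came from RefSeq (GRCm38.p6) and GENCODE and were read with Python 3.11.15, pandas 2.3.3 and Biopython 1.88; figures used matplotlib 3.10.9.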

Additional observations from a re-analysis of the deposited data

Results flagged for a closer look

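Among 70 groups of 4 libraries or cultures, 9 held a value set apart by Dixon's rule. In these the gap to the nearest neighbour, relative to the group's range, was above the 95% critical value. Chance gives about 1 in 20 groups only where values are normally distributed and groups independent. The groups here share cultures and some hold few UMI counts, so an excess over chance was not tested. The high values were Cyp2c29 at 156 CPM in irradiated mouse 4 (next 54.9 CPM), Cyp2c29 at 403 CPM and Cyp3a11 at 238 CPM in VIP-treated whole organoids of mouse 3 (next 109 and 93.6 CPM), and Cyp3a11 at 26.1 CPM in VIP-treated, non-irradiated cells of mouse 2 (next 9.74 CPM). In the first sort Cyp3a13 was at 23.8 CPM in VIP-treated mouse 4 (next 13.6 CPM), and Cyp2c38 at 1.7 CPM in VIP-treated mouse 3, which was 1 UMI against 0 in the others. The low values were those of untreated, non-irradiated cells: Cyp2c55 at 17.0 CPM (next 23.4 CPM) and Cyp2c65 at 110 CPM (next 137 CPM) in mouse 1, and Cyp3a11 at 10.6 CPM in mouse 3 (next 15.4 CPM).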

How the results depend on the processing

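In whole organoids 614 genes were called, with 300 in DESeq2, 979 with all genes tested, 363 to 1668 when a mouse was left out, 1261 without the second library of VIP-treated mouse 3, and 0 genes and 0 members without its first library, an alternative chosen after seeing the data. Without the mouse as a replicate block 99 genes and 1 member were called in whole organoids, 1 gene in the first sort, 34 genes with VIP in non-irradiated cells, and 12 genes and 1 member with VIP in irradiated cells. In the first sort 6 genes were called, with 2 in DESeq2, 17 with all genes (1 member), and 3 to 17 when a mouse was left out (0 to 1 members). VIP in non-irradiated cells called 74 genes and 3 members, with 2 members in DESeq2. It called 182 genes for all genes, 184 for only the 2 groups and 32 to 42 without a mouse. VIP in irradiated cells called 22 genes, with 12 in DESeq2 (0 members), 110 for all genes (6 members), 52 for only the 2 groups and 5 to 35 without a mouse (0 to 3 members). Irradiation of untreated cells called 445 genes, with 281 in DESeq2, 176 to 643 without a mouse, and 6 members for all genes. Irradiation of VIP-treated cells called 776 genes, with 489 in DESeq2 and 426 to 691 without a mouse. The interaction called 0 genes in edgeR and DESeq2 (634 and 266 at an unadjusted p under 0.05), with 34 genes and 1 member for all genes, and 0 to 1 genes without a mouse. Without mouse 3, Ces2c in whole organoids went from -0.02 to 0.44 (0.0057 and 0.0469 without the second or the first library of its VIP-treated culture), Cyp2c55 from -0.09 to 0.22 and Cyp2c65 from -0.10 to 0.09. The other values that changed sign were not called: with VIP in non-irradiated cells Cyp3a13 was 0.01, and -0.0061 for all genes, -0.0075 for only the 2 groups and -0.44 to 0.26 without a mouse. With irradiation of VIP-treated cells and a mouse left out, Cyp2c29 ranged from -0.25 to 0.47 (0.0172 for only the 2 groups), Cyp2c66 from -0.38 to 0.18, Cyp2c55 from -0.65 to 0.21 and Cyp3a13 from -0.0501 to 0.76. The cause of these changes was not tested. Depth limited Cyp2c38 and Ces2c in sorted cells, and 5 further members in the first sort.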
